A study of Saccharomyces cerevisiae with 12 samples.

Results

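The galactose, sucrose and maltose genes are a set of 10 budding yeast genes, out of 5917 coding sequences in the files, chosen by name for their part in using sugars other than glucose: GAL1 (YBR020W), GAL2 (YLR081W), GAL3 (YDR009W), GAL4 (YPL248C), GAL7 (YBR018C), GAL10 (YBR019C), GAL80 (YML051W), SUC2 (YIL162W), MAL12 (YGR292W) and MAL32 (YBR299W). The question was which of them are derepressed when glucose is removed. RNA-seq was available for wild-type yeast and for mrn1Δ, in which a kanamycin cassette was integrated at MRN1, the gene of an RNA-binding protein, in the haploid strain BY4741. Each genotype was grown to an OD600 of 0.6 in rich medium with 2% glucose (fermentative growth), and was also collected 20 minutes after a change to medium with 2% ethanol and 2% glycerol (respiratory growth). There were 3 replicates in each of the 4 groups, or 12 libraries, and all of them carry the auxotrophic deletions of BY4741. No sugar that these genes process was added to either medium. No library was taken after a mock change into fresh glucose medium, so that loss of glucose, gain of ethanol and glycerol and the handling itself cannot be told apart.

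In galactose metabolism, Gal2 carries the sugar into the cell, Gal1 phosphorylates it, and Gal7 and Gal10 pass it on towards glucose phosphate. The genes of these enzymes are switched on by the activator Gal4, which the inhibitor Gal80 holds inactive until the sensor Gal3, bound to galactose, takes Gal80 away. Glucose acts above this switch: the repressor Mig1, with the corepressor Cyc8-Tup1, binds upstream of several of these genes and of SUC2 and the MAL genes, and is removed when the kinase Snf1 becomes active. SUC2 encodes invertase, which splits sucrose outside the cell. It is also known to give a shorter, glucose-insensitive mRNA for an internal enzyme, which counts per coding sequence do not separate. MAL12 and MAL32 encode maltases and lie in clusters with a maltose permease and an activator, which needs maltose.

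The sequences upstream of the genes show which of these regulators has a recognisable site there. In the 600 bases before each start codon of the R64 genome, both strands were searched for CGG and CCG separated by any 11 bases, the Gal4 site, and for C or G followed by C or T and then GGGG, a short form of the Mig1 site. The Gal4 pattern was found at 7 of the 10 genes and in 3.45% of 5889 upstream regions of the same length, and a Mig1 hexamer at 8 of the 10 and in 27.8% of all regions. GAL1 and GAL10 are transcribed away from each other with 668 bases between their start codons, and they share 3 Gal4 patterns and 2 Mig1 hexamers. These Gal4 patterns are shown on the strand of GAL1, with the fixed bases in capitals, followed by the single patterns of GAL7, GAL3, GAL4 and GAL80, each on its own gene's strand.

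GAL1 and GAL10, chrII:278565-278587, plus strand: gtaCGGattagaagccgCCGagc
GAL1 and GAL10, chrII:278584-278606, plus strand: gagCGGgcgacagccctCCGacg
GAL1 and GAL10, chrII:278602-278624, plus strand: cgaCGGaagactctcctCCGtgc
GAL7, chrII:275700-275722, minus strand: gctCGGacaactgttgaCCGtga
GAL3, chrIV:463143-463165, plus strand: gttCGGtccactgtgtgCCGaac
GAL4, chrXVI:82807-82829, minus strand: agaCGGtggcgcaggatCCGgtt
GAL80, chrXIII:171419-171441, plus strand: tacCGGcgcactctcgcCCGaac

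GAL2 had 5 such patterns, of which 2 overlapped each other, and no Mig1 hexamer, and GAL7 also had no Mig1 hexamer in this window. SUC2, MAL12 and MAL32 had no Gal4 pattern. Their Mig1 hexamers are shown because these genes include the largest changes, with the hexamer (or its complement, read on the gene's strand) in capitals. Hexamers were not confined to them: besides GAL1 and GAL10, GAL4 had 3, GAL3 had 2 and GAL80 had 1. Whether their number goes with the size of a change was not tested. SUC2 had 3, and MAL12 and MAL32 had 1 each, in identical sequence at the same distance, 295 bases before the start codon.

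SUC2, chrIX:36878-36899, plus strand: ccattattCCCCGCatttttat
SUC2, chrIX:36938-36959, plus strand: gaaattatCCGGGGgcgaagaa
SUC2, chrIX:36972-36993, plus strand: ttaatcgaCCCCACgtccaggg
MAL12, chrVII:1076296-1076317, plus strand: ttcgcggaCCCCACacaattaa
MAL32, chrII:805048-805069, plus strand: ttcgcggaCCCCACacaattaa

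These matches describe letters only, and binding was not measured. Within 250 bases of the start codon, 3 of the 10 genes held a Gal4 pattern and 3 a Mig1 hexamer, against 1.14% and 9.47% of all regions.

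The libraries held 16231570 to 26542204 estimated counts each, so that 3 counts correspond to 0.113 to 0.185 CPM, that is, counts relative to the library total. MRN1 lay between 84.6 and 137 normalized CPM (scaled by TMM factors over all 12 libraries) in the 6 wild-type libraries and between 0.0964 and 0.650 in the 6 mrn1Δ libraries. Of 6 genes specific to MATa cells, the mating type of BY4741, STE2, BAR1 and STE6 lay between 61.1 and 348 CPM, while MFA2 lay between 6.37 and 16.99, ASG7 between 4.22 and 6.92 and MFA1 at 2.34 or less. In each genotype 4 of the 6 were called lower after the change of medium, by the rule given below. Of all genes tested, that rule called 38.6% higher and 36.4% lower in wild-type, and 43.2% and 40.3% in mrn1Δ. Of 4 genes of the opposite mating type, MF(ALPHA)1 was at 1.26 or less, STE3 at 4.72 or less and MF(ALPHA)2 at 7.80 or less. SAG1 was at 22.5 to 34.6. In each genotype 1 of these was called higher and 1 lower, against the same shares. The part of the mating-type genes in the results was not tested. LEU2, URA3 and MET17, which BY4741 lacks, were at 0.553 or less, whereas HIS3, of which BY4741 is known to lack only a part, was at 16.95 to 59.4 in the 12 libraries. All values are shares of the mRNA in a library, so that a change in one gene and a change in total mRNA per cell cannot be told apart. The methods describe triplicate cultures and a single mrn1Δ strain, and do not say whether libraries with the same number in both media came from the same culture.

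The removal of glucose was followed by higher levels of 9 of the 10 genes in both genotypes. In wild-type the rise ran from 1.74-fold for GAL1 to 18.1-fold for SUC2. In normalized CPM, GAL80 lay within its own spread. Under scaling by library totals alone, GAL80 was called higher in mrn1Δ as well, which made 10 of 10 there. Genes were called higher or lower at a Benjamini-Hochberg adjusted p under 0.05 in edgeR's quasi-likelihood test. In wild-type this rule called 38.6% of all 5801 genes tested higher and 36.4% lower, and in mrn1Δ 43.2% of 5793 higher and 40.3% lower, so that a call by itself sets a gene little apart. With a log2 fold change of at least 1 as well, 8 of the 10 genes were called in each genotype, against 15.2% of all genes in wild-type and 16.3% in mrn1Δ. The median log2 fold change of the 10 genes was 1.74 in wild-type and 2.07 in mrn1Δ, and that of all genes tested was 0.03 and 0.05. None of the 10 was called lower in either genotype.

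**Figure D1:**
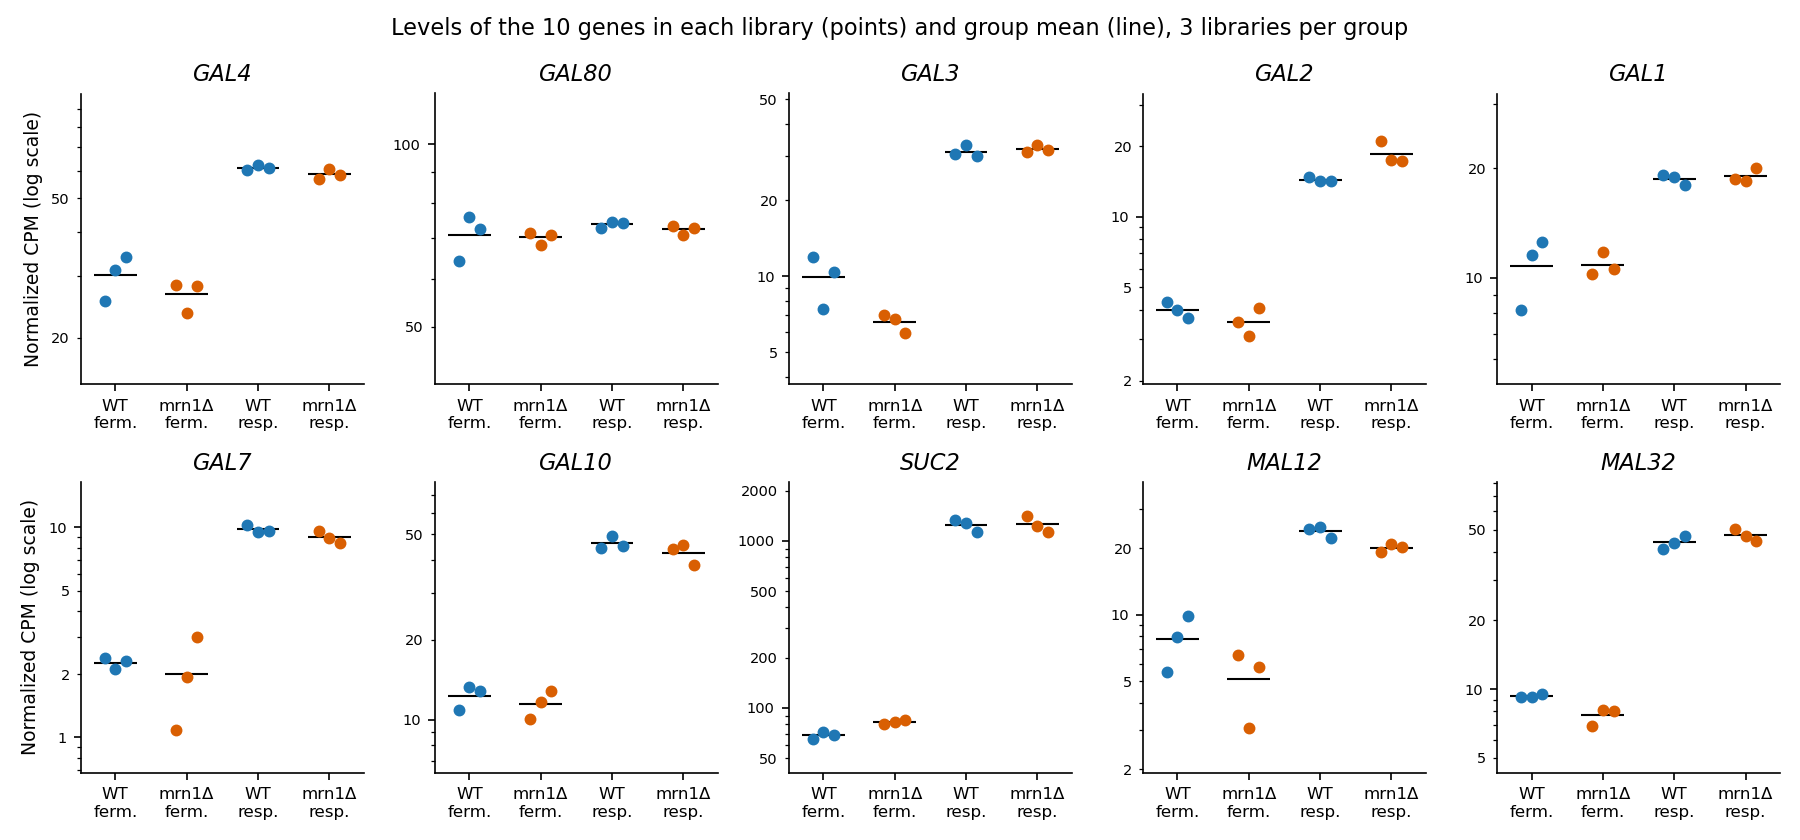
Normalized CPM of each of the 10 genes (log axis, a separate scale for each gene) in the 12 libraries, as points, with the mean of each group as a line; blue is wild-type and orange mrn1Δ. In 9 genes the 6 respiratory libraries lie above the 6 fermentative ones, and in GAL80 they overlap, although scaling by library totals alone places GAL80 higher in mrn1Δ. The share of all genes that separate in this way was not counted. Of all genes tested, 38.6% were called higher in wild-type and 43.2% in mrn1Δ.

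SUC2 had the largest change of the set. In wild-type it was at 65.4, 72.0 and 68.8 CPM in glucose and at 1338, 1273 and 1137 CPM in ethanol and glycerol. The mrn1Δ libraries were at 80.6, 81.9 and 85.0 CPM and then at 1408, 1235 and 1131 CPM. All 6 respiratory libraries thus lay far above all 6 fermentative ones, and the respiratory values of the genotypes overlapped. The fold change was 18.1 in wild-type (95% confidence interval 15.3 to 21.5, edgeR adjusted p = 1.1e-08, n = 3 per group) and 15.1 in mrn1Δ (13.2 to 17.3, adjusted p = 8.6e-11). In wild-type the log2 fold change exceeded that of 99.3% of the genes tested, and in mrn1Δ that of 98.9%. On the TPM scale, which divides by length and so allows levels of different genes to be compared, SUC2 stood at rank 2410 of all 5917 coding sequences in wild-type in glucose and at rank 174 after the change of medium.

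The transporter and the enzymes of galactose use were also higher after the change of medium, by much less than SUC2 and from low levels. GAL7, the uridylyltransferase gene, was the scarcest in CPM. It was at 2.38, 2.11 and 2.30 CPM in wild-type in glucose, from 38 to 64 counts, and at 10.3, 9.50 and 9.61 CPM in ethanol and glycerol, a 4.30-fold difference (95% confidence interval 3.37 to 5.50, edgeR adjusted p = 2.0e-06). In mrn1Δ it was at 1.08, 1.93 and 2.99 CPM in glucose, the widest relative spread of the set, and at 9.64, 8.94 and 8.39 CPM afterwards, 4.54-fold higher (3.03 to 6.79). No library in glucose reached the lowest respiratory value.

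GAL10, which encodes the epimerase, was at 10.8, 13.3 and 12.8 CPM in wild-type in glucose and at 44.2, 49.1 and 45.1 CPM after the change, 3.73-fold higher (95% confidence interval 3.19 to 4.37, edgeR adjusted p = 2.5e-07). In mrn1Δ its level was 10.1, 11.6 and 12.8 CPM and then 44.1, 45.4 and 38.1 CPM, 3.69-fold higher. The groups did not overlap in either genotype. GAL2, the galactose permease, was at 4.31, 4.01 and 3.70 CPM in wild-type in glucose and at 14.7, 14.2 and 14.2 CPM afterwards, 3.56-fold higher (2.90 to 4.37, adjusted p = 1.5e-06). The mrn1Δ values were 3.55, 3.08 and 4.06 CPM and then 21.0, 17.4 and 17.3 CPM, 5.15-fold higher (4.21 to 6.31). All 3 respiratory libraries of mrn1Δ were above all 3 of wild-type.

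GAL1, the galactokinase gene, changed least among the 9. It was at 8.16, 11.6 and 12.5 CPM in wild-type in glucose and at 19.1, 18.9 and 18.02 CPM afterwards, 1.74-fold higher (95% confidence interval 1.36 to 2.22, edgeR adjusted p = 0.0013). In mrn1Δ it was at 10.3, 11.8 and 10.6 CPM and then at 18.6, 18.4 and 20.1 CPM, again 1.74-fold higher (1.52 to 1.99, adjusted p = 1.1e-05). Replicate 1 of wild-type in glucose was the lowest library.

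GAL1 and its divergent neighbour GAL10 thus changed to different degrees although they share their upstream region and the patterns printed above. Per length, GAL10 was at 0.995, 0.860 and 0.768 times the TPM of GAL1 in the wild-type libraries in glucose, and at 1.73, 1.95 and 1.88 times in ethanol and glycerol. In mrn1Δ the ratio was 0.737, 0.741 and 0.905 and then 1.77, 1.85 and 1.43. All 6 respiratory ratios were above all 6 fermentative ones, and the 95% intervals of the wild-type log2 fold changes, 0.44 to 1.15 for GAL1 and 1.67 to 2.13 for GAL10, did not overlap. The ratio of GAL10 to GAL7 had group means of 2.81 ± 0.45 and 2.42 ± 0.22 (SD, n = 3) in wild-type in glucose and afterwards, within the spread of the libraries in glucose. The strand setting of the counting is not given in the sources used here, and an antisense transcript is known across GAL10 in glucose, so that sense and antisense reads could not be told apart and their part in these ratios was not tested.

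Among the regulators, the sensor and the activator were higher after the change of medium, and the inhibitor was not in normalized CPM. GAL3, which encodes the sensor and is a relative of GAL1 with 68.0% identical bases, was at 11.9, 7.45 and 10.4 CPM in wild-type in glucose and at 30.3, 33.0 and 29.8 CPM in ethanol and glycerol. This was 3.11-fold higher (95% confidence interval 2.42 to 4.01, edgeR adjusted p = 1.3e-05). In mrn1Δ it was at 7.02, 6.79 and 5.99 CPM and then at 31.01, 32.9 and 31.5 CPM, 4.76-fold higher (4.17 to 5.43). The respiratory values of the genotypes overlapped, and in glucose the mrn1Δ libraries all lay below those of wild-type.

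GAL4, the activator gene, was at 25.5, 31.3 and 34.1 CPM in wild-type in glucose and at 60.3, 62.2 and 61.1 CPM afterwards, 2.02-fold higher (95% confidence interval 1.71 to 2.38, edgeR adjusted p = 1.8e-05). The values in mrn1Δ were 28.4, 23.6 and 28.2 CPM and then 56.7, 60.4 and 58.4 CPM, 2.17-fold higher. The wild-type log2 fold change, 1.01, lay just above the minimum of 1.

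GAL80, the inhibitor gene, was at 64.2, 75.7 and 72.4 CPM in wild-type in glucose and at 72.7, 74.3 and 74.1 CPM in ethanol and glycerol. The mrn1Δ libraries were at 71.4, 68.1 and 70.9 CPM and then at 73.3, 70.9 and 72.8 CPM. In normalized CPM the groups overlapped in both genotypes. The fold difference was 1.04 in wild-type (95% confidence interval 0.917 to 1.17, edgeR adjusted p = 0.57) and 1.02 in mrn1Δ (0.949 to 1.10, adjusted p = 0.56), so that a difference of up to 1.17-fold remains within the intervals. Scaling by library totals alone gave a log2 fold change of 0.20 in mrn1Δ (edgeR adjusted p = 0.0032). There it also moved the median of all genes from 0.05 to 0.22. In the deposited TPM, which is not scaled by TMM factors, the GAL80 groups did not overlap. Wild-type lay at 48.5 to 60.9 TPM in glucose and at 69.6 to 74.7 afterwards, and mrn1Δ at 54.9 to 56.5 and then 72.0 to 73.7. The TPM of all genes was not compared between the media, so that a shift shared by many genes is not separated from one of GAL80. In wild-type, 0 of 14 alternative fits called GAL80. Whether GAL80 changed thus depends on the scaling, in wild-type through the TPM values only.

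**Figure D2:**
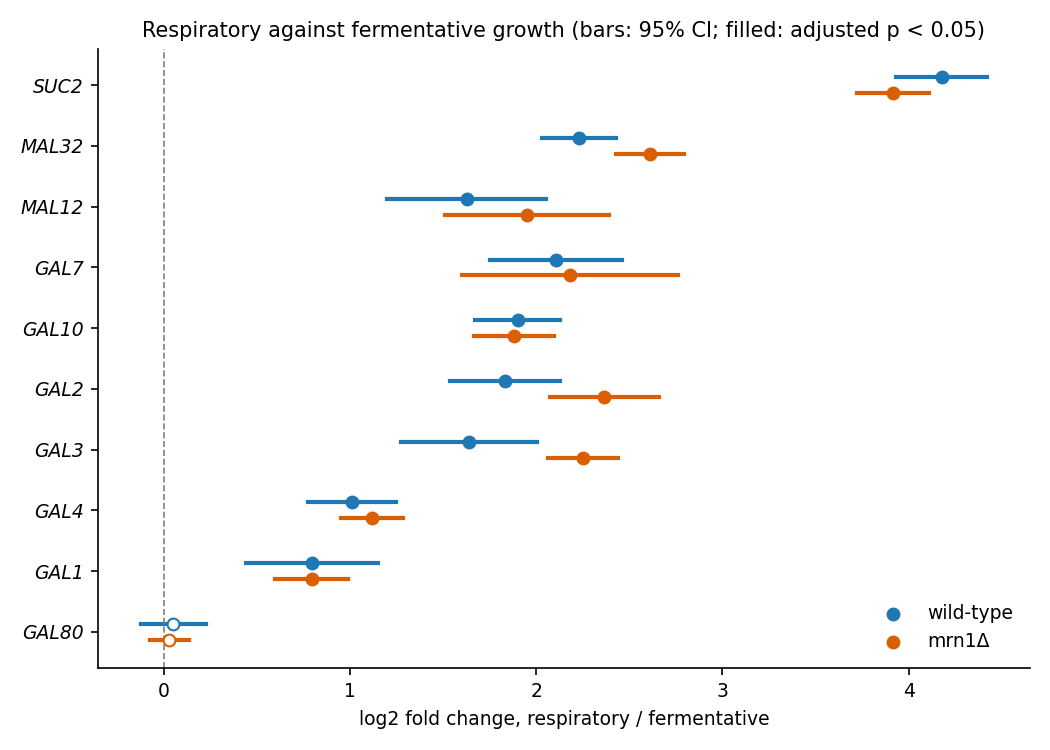
Log2 fold change of respiratory over fermentative growth for each gene, in wild-type (blue) and mrn1Δ (orange), with 95% confidence intervals as bars and filled points for an edgeR adjusted p under 0.05. SUC2 stands apart at 4.18 and 3.92, 8 genes lie between 0.80 and 2.61, and GAL80 lies at 0.05 and 0.03 with open points (it was called higher in mrn1Δ under scaling by library totals alone).

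The maltase genes were higher in both genotypes, but reads of the pair can be divided only in part. The coding sequences of MAL12 and MAL32 have 1755 bases each and are 99.5% identical, and of the 31-base words that the counting tool can use, only 10.3% in each gene occur in no other coding sequence. They differ at 8 positions, counted from 1 at the A of the start codon, among them C222T, T249C, T258C, G420A, C1399T, C1416T and A1614G, in which the base of MAL12 is named first. The surroundings of G420A are shown with the differing base in capitals, since the separate counts of the genes depend on such words.

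MAL12, chrVII:1077004-1077032, plus strand: tggagacctcctaaGggttatgacgccga
MAL32, chrII:805756-805784, plus strand: tggagacctcctaaAggttatgacgccga

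MAL12 was at 5.49, 7.90 and 9.88 CPM in wild-type in glucose and at 24.4, 24.9 and 22.2 CPM in ethanol and glycerol, 3.09-fold higher (95% confidence interval 2.30 to 4.15, edgeR adjusted p = 3.9e-05). In mrn1Δ the values were 6.54, 3.08 and 5.77 CPM and then 19.1, 20.9 and 20.2 CPM, 3.86-fold higher (2.85 to 5.25). MAL32 was at 9.20, 9.23 and 9.52 CPM in wild-type in glucose and at 41.2, 43.7 and 46.9 CPM afterwards, 4.70-fold higher (4.10 to 5.39, adjusted p = 5.5e-08). Both maltase genes thus had groups that did not overlap. In mrn1Δ, MAL32 was at 6.89, 8.14 and 8.02 CPM and then at 50.4, 46.7 and 44.7 CPM, 6.11-fold higher (5.38 to 6.94).

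The sum of the pair does not depend on how shared reads were divided between them. Each gene also shares some words with the isomaltase genes IMA1, IMA2, IMA3 and IMA4. At most this was 48 of 1725 words for MAL12 (with IMA2) and 52 of 1725 for MAL32 (with IMA1). How reads were divided with those genes can still affect the sum. The sum was at 14.7, 17.1 and 19.4 CPM in wild-type in glucose and at 65.6, 68.6 and 69.1 CPM afterwards, 3.97-fold higher (95% confidence interval 3.38 to 4.67, edgeR adjusted p = 2.3e-07). In mrn1Δ the sum was at 13.4, 11.2 and 13.8 CPM and then at 69.6, 67.6 and 64.9 CPM, 5.21-fold higher (4.62 to 5.87). The ratio of MAL32 to MAL12 in TPM ranged from 0.966 to 2.66 in the libraries in glucose and from 1.69 to 2.64 in the respiratory ones, a wider range in glucose, where the counts of the pair were lower.

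Per length, the order of the genes also differed between the media. In wild-type in glucose, GAL80 was the most abundant at 56.3 ± 6.8 TPM (SD, n = 3), followed by SUC2 at 44.3 ± 3.7 and GAL4 at 11.7 ± 2.3. GAL1 (7.04 ± 1.8), GAL3 (6.53 ± 1.5), GAL10 (6.02 ± 0.87), MAL32 (5.46 ± 0.42) and MAL12 (4.60 ± 1.5) followed, each overlapping the next in its libraries, and GAL2 (2.38 ± 0.055) and GAL7 (2.15 ± 0.17) came last. In ethanol and glycerol SUC2 led at 986 ± 54 TPM, followed by GAL80 at 71.7 ± 2.7. MAL32 (31.6 ± 3.0), GAL4 (28.9 ± 0.96), GAL10 (27.5 ± 1.4) and GAL3 (25.1 ± 0.98) came next, each again overlapping its neighbour, followed without overlap by MAL12 at 17.1 ± 0.51, GAL1 at 14.9 ± 0.13, GAL7 at 11.4 ± 0.51 and GAL2 at 10.5 ± 0.31. After 20 minutes the galactose enzyme genes were therefore still below GAL80 in TPM, and SUC2 was above it.

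The genotypes were then compared within each medium, to ask whether MRN1 bears on these genes. In glucose, none of the 10 was called at an adjusted p under 0.05 in edgeR. Of all 5785 genes tested, 0.588% were called higher and 0.328% lower in mrn1Δ by that rule. An unadjusted p under 0.05 was found for 3 of the 10 and for 878 of the 5785 genes. SUC2 was at 65.4 to 72.0 CPM in wild-type and at 80.6 to 85.0 in mrn1Δ without overlap, 1.20-fold (95% confidence interval 1.08 to 1.33, adjusted p = 0.16), and DESeq2 called it higher with an adjusted p of 0.044. GAL3 had a log2 difference of -0.59 (-1.02 to -0.17, adjusted p = 0.21). It was called lower when all 12 libraries shared one fit (adjusted p = 0.038) and without replicate 2 of wild-type in glucose (adjusted p = 0.048), the wild-type library with the lowest GAL3. The sum of MAL12 and MAL32 had a log2 difference of -0.42 (-0.71 to -0.12, adjusted p = 0.21). The other genes overlapped between genotypes, apart from MAL32 with a log2 difference of -0.28 (adjusted p = 0.32).

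In ethanol and glycerol, GAL2 was the only one of the 10 that was called, 1.29-fold higher in mrn1Δ (95% confidence interval 1.11 to 1.50, edgeR adjusted p = 0.030), where 6.79% of 5800 genes were called higher and 7.83% lower. This call was kept in 1 of the 6 fits that left out a library, the one without replicate 2 of wild-type. Without the highest library, replicate 1 of mrn1Δ at 21.0 CPM, the log2 difference was 0.28 (adjusted p = 0.12), and with all 12 libraries in one fit the adjusted p was 0.055. MAL12 was lower in every mrn1Δ library than in every wild-type library, with a log2 difference of -0.24 (adjusted p = 0.070), but MAL32 had one of 0.11 (adjusted p = 0.33), and their sum did not differ beyond its interval, with a log2 difference of -0.00050 (-0.12 to 0.12). SUC2 was at 1137 to 1338 CPM in wild-type and at 1131 to 1408 in mrn1Δ, 1.01-fold (0.874 to 1.17, adjusted p = 0.92). For the remaining GAL genes the intervals of the fold difference all lay between 0.782 and 1.16.

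**Figure D3:**
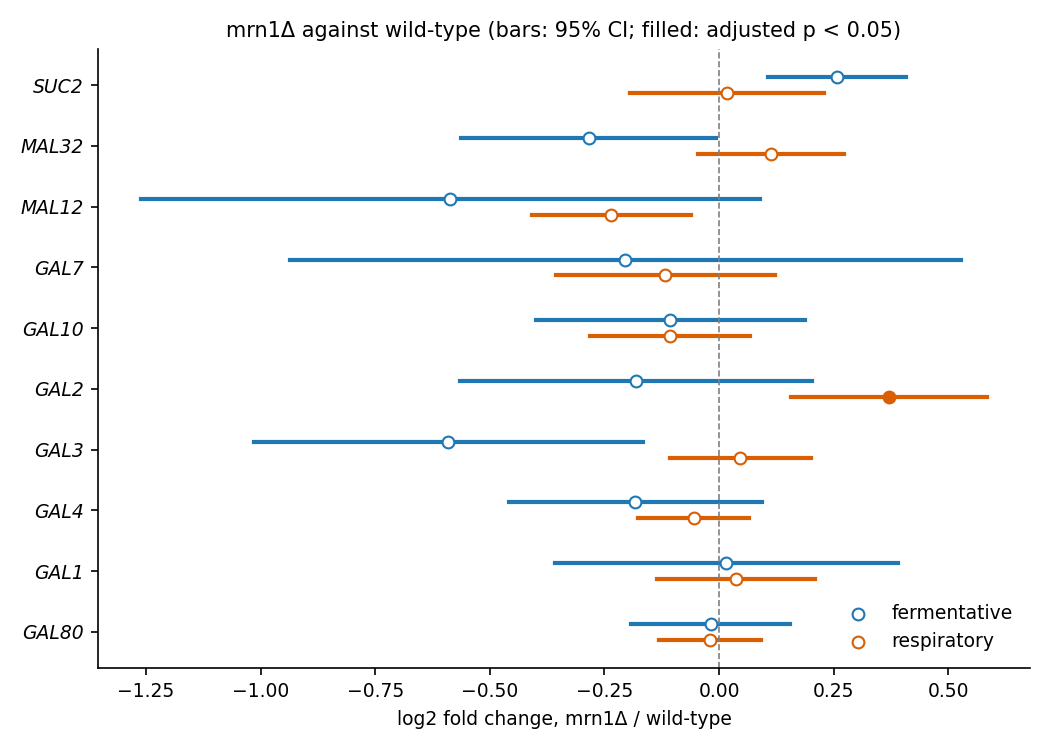
Log2 fold change of mrn1Δ over wild-type for each gene in fermentative (blue) and respiratory (orange) growth, with 95% confidence intervals as bars and filled points for an edgeR adjusted p under 0.05. Only GAL2 in respiratory growth, at 0.37, is filled, and for every gene except SUC2 the interval is wider in glucose.

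Whether the response to the change of medium itself differed between the genotypes was tested as an interaction on all 12 libraries. No gene of the 10 was called in edgeR at an adjusted p under 0.05, and 1.12% of 5828 genes were called higher and 2.11% lower. An unadjusted p under 0.05 was found for 3 of the 10 and for 1141 of the 5828 genes. The largest estimates were 0.64 on the log2 scale for GAL3 (95% confidence interval 0.24 to 1.03, adjusted p = 0.079), 0.56 for GAL2 (0.17 to 0.95, adjusted p = 0.11) and 0.40 for MAL32 (0.14 to 0.66, adjusted p = 0.092), each towards a larger rise in mrn1Δ. GAL3 was called in DESeq2 (adjusted p = 0.031) and without replicate 2 of wild-type in glucose (adjusted p = 0.0043). For SUC2 the estimate was -0.24 (-0.51 to 0.04, adjusted p = 0.33).

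Other genes of the same routes placed these changes in context. Of 13 further genes of the maltose route, 10 were called higher, 0 lower and 3 neither in wild-type, against 38.6% of all genes higher and 36.4% lower, and 12, 0 and 1 in mrn1Δ, against 43.2% and 40.3%. Their median log2 fold changes were 1.29 and 1.14, against 0.03 and 0.05 over all genes. The largest in wild-type were ZNF1, a regulator of respiratory growth, at 4.60, and the maltose permease genes MAL11 and MAL31, next to MAL12 and MAL32, at 3.30 and 3.17. Both permease genes thus had larger estimates than the maltase gene of the same cluster. The isomaltase genes IMA3 and IMA4 had the same counts in every library and are in effect 1 measurement, at 1.05. In the comparison of genotypes in ethanol and glycerol, 4 of the 13 were called higher (IMA3, IMA4, ZNF1 and MAL33, at 0.33 to 0.46), 1 lower (IMA1, at -0.29) and 8 neither, with IMA3 and IMA4 being 1 measurement; the shares over all genes were 6.79% higher and 7.83% lower.

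Of 7 further genes of the galactose route or under Gal4 control, 5 were called higher and 2 lower in each genotype, where the shares of all genes called were 38.6% and 36.4% in wild-type and 43.2% and 40.3% in mrn1Δ. Their median log2 fold changes were 1.14 in wild-type and 1.24 in mrn1Δ, against 0.03 and 0.05 over all genes. PGM2, the major phosphoglucomutase, was at 4.79 in wild-type and 5.14 in mrn1Δ, larger than any of the 10 genes. MTH1, a regulator of glucose sensing, was at 3.45 and 3.15, and GCY1, an aldo-keto reductase gene, at 2.74 and 2.99. The genes that fell were FUR4, the uracil permease, at -1.06 and -1.24, and PGM1, the minor phosphoglucomutase, at -0.45 and -0.61. The phosphoglucomutase genes thus moved in opposite directions.

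Of 18 genes of the machinery of glucose repression, 9 were called higher, 3 lower and 6 neither in wild-type, where 38.6% of all genes were called higher and 36.4% lower. In mrn1Δ 12 were higher, 5 lower and 1 neither, against 43.2% and 40.3% of all genes. The medians were 0.21 and 0.29, and those of all genes 0.03 and 0.05. MIG1, the repressor gene, was higher at 2.24 in wild-type and 1.79 in mrn1Δ, MIG2, of the same family, at 1.89 and 1.35, and SIP2, a subunit of the Snf1 kinase, at 1.58 and 1.91. NRG2, another repressor gene, fell by 1.13 and 1.52, TUP1, the corepressor, by 0.62 and 0.79, and ELM1, an upstream kinase, by 0.48 and 0.49. In ethanol and glycerol, 2 of the 18 were called higher in mrn1Δ than in wild-type, TUP1 at 0.39 and SIP1 at 0.18. The 4 called lower were MIG2 at -0.73, MIG3 at -0.56, TOS3 at -0.28 and MIG1 at -0.28. Of all genes tested there, 6.79% were called higher and 7.83% lower. These are mRNA levels, and Mig1 and Snf1 are regulated through phosphorylation, which was not measured.

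**Figure D4:**
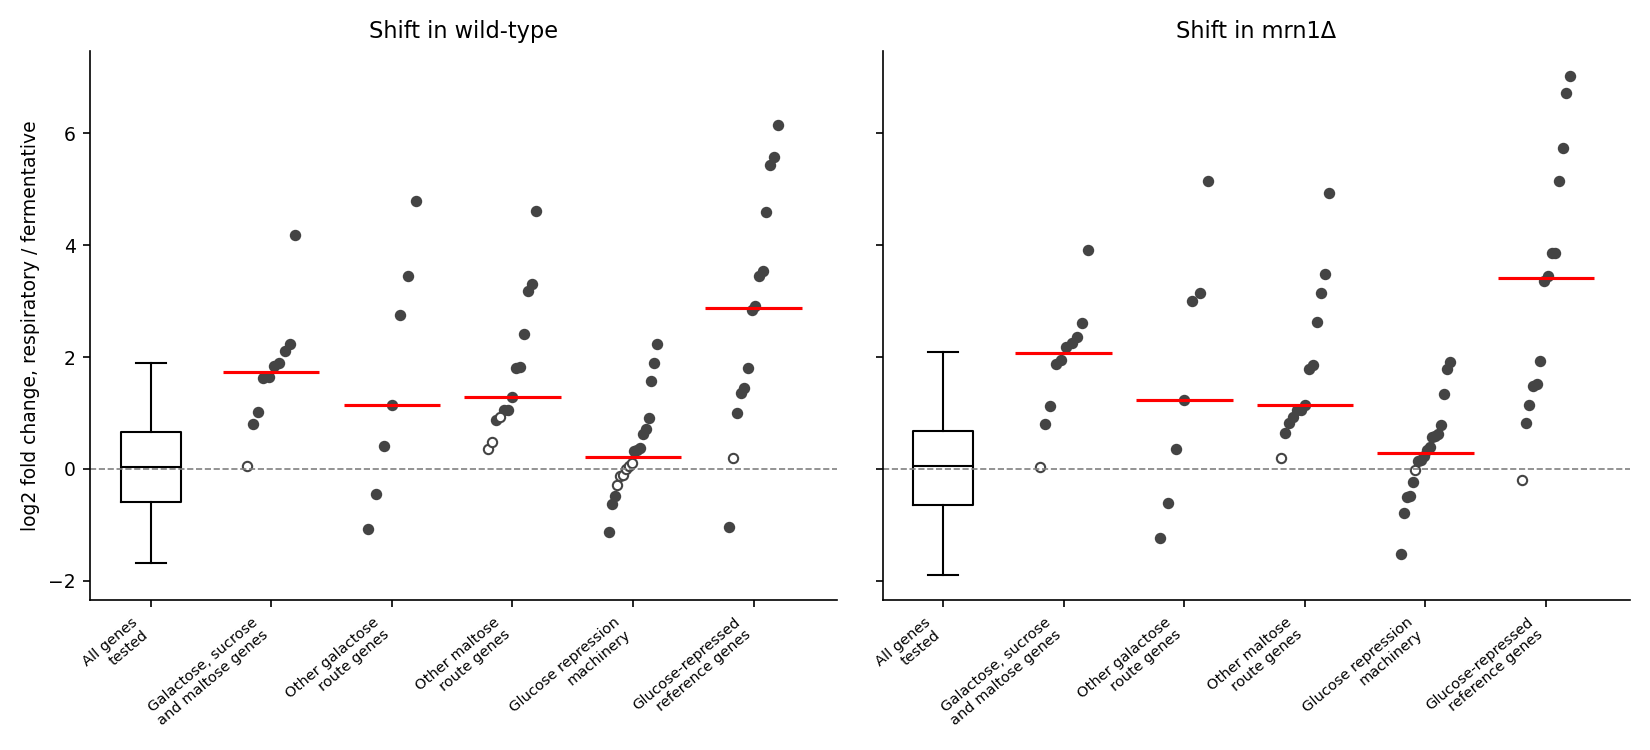
Log2 fold change of respiratory over fermentative growth in wild-type (left) and mrn1Δ (right) for all genes tested (box: quartiles, whiskers: 5th to 95th percentile) and for single genes of 5 lists (points, filled for an edgeR adjusted p under 0.05; red lines are list medians). The 10 genes have medians of 1.74 and 2.07, below the 2.88 and 3.41 of the glucose-repressed reference genes and above the 0.21 and 0.29 of the repression machinery.

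Among 14 other genes known to be repressed by glucose, which serve respiration, gluconeogenesis and fatty acid use, 12 were called higher, 1 lower and 1 neither in wild-type, and 13, 0 and 1 in mrn1Δ, where 38.6% and 43.2% of all genes were called higher. Their medians were 2.88 and 3.41 on the log2 scale. POX1, the first enzyme of fatty acid oxidation, was at 6.15 in wild-type, HXK1, a hexokinase, at 5.58, and JEN1, the lactate permease, at 5.43, all above SUC2. In wild-type SIP4, an activator of gluconeogenesis genes, fell by 1.04. Between genotypes in ethanol and glycerol, 6 of the 14 reference genes were called higher in mrn1Δ and 0 lower, led by JEN1 at 1.14, CYB2, a lactate dehydrogenase, at 0.94 and CTA1, the peroxisomal catalase, at 0.74, where 6.79% of all genes were called higher and 7.83% lower. The study named JEN1 and CYB2 from these libraries, so that they are not independent evidence of this direction. The interaction was called for 3 of the 14, JEN1 (1.31), CYB2 (1.04) and POX1 (0.90), against 1.12% of all genes called higher.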

How the data were processed

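The authors depleted ribosomal RNA, prepared libraries with the NEBNext Ultra II RNA kit and deposited, per coding sequence, an estimated count without normalization between libraries and a TPM value scaled for length and depth; the submitters' processing notes name kallisto 0.44.0 and R64. The strand setting is not given in the sources used here. Names, coordinates and sequences came from RefSeq's R64 (5911 of 5917 identifiers matched).

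Estimated counts were rounded to whole numbers (3 of the 10 genes had fractional counts: MAL12, MAL32 and GAL2) and tested with edgeR 4.0.16 in R 4.3.3 (TMM, default expression filter, robust quasi-likelihood test) on the 6 libraries of each comparison, and on all 12 for the interaction. Adjusted p-values are Benjamini-Hochberg values over all genes tested. Standard errors and 95% intervals come from the F statistic. All 10 genes passed the filter in each comparison. The deposited TPM values were used only to compare levels of different genes and, for GAL80, to compare the media. Likeness to SUC2 used log2(CPM + 0.5). Figures were drawn with matplotlib 3.10.9, and sequences read with Biopython 1.88 under Python 3.11.15.

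The 10 genes, the further lists and the motifs were chosen with earlier results of these data known. The text names all 10 genes, up to 3 called genes per direction with the largest change from each list, MRN1, and the 3 genes most like SUC2. MAL33, and MIG1 in the comparison of genotypes, were named after their values were seen. IMA3 and IMA4 share their counts. One of the differences between MAL12 and MAL32 is not reported here. Alternatives were DESeq2 1.42.0, upper-quartile and library-total scaling, no filter, a minimum of 10 counts per library, one fit over the 12 libraries, a replicate block, each library left out, and a log2 fold change of at least 1. In the wild-type shift, same-numbered libraries deviated together (correlations 0.21, 0.20 and 0.11). The main tests did not pair the libraries, and the replicate block was fitted only as an alternative. The block changed no call of the 10 genes there. Intervals and floors of 3 counts cover counting error or the spread of these cultures only.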

Additional observations from a re-analysis of the deposited data

How the results depend on the processing

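In both shifts 9 of the 10 genes were called higher under each alternative, except 10 in mrn1Δ with library totals alone, and 8 with the log2 fold change minimum of 1. In respiratory growth, GAL2 was the only gene higher, and the count fell to 0 with all 12 libraries in one fit and with that minimum. Upper-quartile scaling called 1 gene lower there, MAL12 (-0.27, adjusted p = 0.043), and 260 genes of all higher (main 394), and one fit 258. In fermentative growth DESeq2 called 1 of the 10 higher, with 153 of all genes higher and 54 lower (main 34 and 19), and one fit 1 lower, with 132 and 60. In the interaction (main 65 and 123), DESeq2 called 1 higher, with 114 and 317, and library totals alone gave 100 and 60. The share of calls that were higher moved in respiratory growth from 46.5% to 31.1% with upper-quartile scaling and 63.2% with totals, and in the interaction from 34.6% to 62.5% with totals, whose median was 0.11 rather than 0.01. The cause was not tested. Motif counts within 250 bases were 3 and 3 rather than 7 and 8.

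Estimates near 0 changed sign: GAL80 in the mrn1Δ shift with DESeq2 (-0.0058); GAL1 in fermentative growth with upper-quartile scaling (-0.042) and totals (-0.043); GAL80 (0.022, totals) and SUC2 (-0.016, upper-quartile) in respiratory growth; in the interaction GAL1 (-0.0056, DESeq2), GAL10 (-0.023 with DESeq2, -0.015 without filter, -0.0092 with at least 10 counts) and GAL80 (-0.024, -0.015 and -0.0087 likewise).

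The replicate block changed no call of the 10 genes in any comparison; GAL2 in respiratory growth had an adjusted p of 0.016 with it, GAL10's interaction was -0.00021, and the interaction called 99 of all genes higher and 162 lower. Same-numbered libraries did not all deviate together in the mrn1Δ shift (0.15, 0.02 and 0.18) or between genotypes (0.03, 0.21 and -0.08 in fermentative growth, 0.00, 0.17 and -0.15 in respiratory growth).

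Leaving out 1 library gave 9 genes higher in every fit of both shifts, 0 to 1 lower in fermentative growth, 0 to 1 higher in respiratory growth and 0 to 1 higher in the interaction. Over all genes the calls ranged from 13 to 63 higher and 6 to 27 lower in fermentative growth, from 152 to 445 and 166 to 473 in respiratory growth, and from 26 to 155 and 50 to 346 in the interaction. Ranges that crossed 0 were -0.037 to 0.11 for GAL80 in the wild-type shift; -0.15 to 0.14 for GAL1, -0.59 to 0.11 for GAL7 and -0.081 to 0.029 for GAL80 in fermentative growth; -0.0020 to 0.061 for GAL1 and -0.071 to 0.089 for SUC2 in respiratory growth; and -0.11 to 0.18 for GAL1, -0.24 to 0.48 for GAL7, -0.10 to 0.079 for GAL10 and -0.052 to 0.054 for GAL80 in the interaction. The lowest counts, 25 to 64 for GAL7 in fermentative growth, limit that gene most.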

Other observations

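The genes whose pattern over the 12 libraries was closest to that of SUC2, by root mean square distance of mean-centred log2(CPM + 0.5) among 5828 genes, were AQY3, a gene of the aquaporin family (distance 0.16), IGD1, an inhibitor of glycogen debranching (0.16), and GAC1, a regulatory subunit of the Glc7 phosphatase that acts on glycogen synthase (0.20). AQY3 had a mean of 18.9 CPM in wild-type in glucose and 284.6 CPM in ethanol and glycerol, and IGD1 had 10.1 and 147 CPM. GAC1 had 29.3 and 451 CPM. All 3 had lower levels than SUC2 in each group. Since most of the variation over the libraries is between the media, this measure mainly finds genes with a fold change like that of SUC2.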
